A study of Homo sapiens with 2 samples.

Results

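The genes described here control the passage of a cell from G1 into S phase: the D-type cyclins CCND1 and CCND3, the E-type cyclins CCNE1 and CCNE2, the cyclin-dependent kinases CDK2, CDK4 and CDK6, the kinase inhibitors CDKN1A (p21) and CDKN1B (p27), and the retinoblastoma gene RB1. They were taken from a fixed list of names with no threshold on their values, though the list was chosen with earlier results of these data known. All 10 were among the 12925 genes of the deposited table. The cells were MDA-MB-231, an established human line of triple-negative breast cancer. 1 culture had received a THAP7-AS1 Smart Silencer, a commercial reagent that combines siRNAs with antisense oligonucleotides, here against the antisense long noncoding RNA THAP7-AS1, and 1 culture had received the negative control si-NC; both were kept in L15 medium with 10% FBS and collected at 48 h. Each group had 1 RNA-seq library, so the differences below have no replicate check and no test, and they describe these 2 libraries only.

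The values are FPKM, read fragments scaled to transcript length and to library depth, summed over the transcripts listed for a gene. The unit was read from the values, since the header names none. The control column carries the name si-NC, and the other column, headed si-v, was taken as the silencer library because no other library is in the series; every direction rests on that assignment. None of the 3 annotated THAP7-AS1 transcripts was listed, so the silencing could not be checked. From the spacing of low values, the transcripts in the table held roughly 7830000 fragments with si-NC and 8320000 with si-v. Of the markers fixed for the line, VIM (344 and 373 FPKM in the control and si-v libraries), CD44 (152 and 114), AXL (259 and 204) and EGFR (53.5 and 39.4) were present. Of the markers expected low or absent, the estrogen receptor gene ESR1 was listed at 0 in both libraries and CDH1 stayed under the filter. ERBB2, also expected low, stood at 4.65 FPKM with si-NC and at 17.4 with si-v, 3.75-fold higher. PGR, PTPRC, PECAM1 and COL1A2 were not listed. The hepatocyte gene ALB stood at 17.0 and 17.7 FPKM, and its source was not examined. Mitochondrially encoded genes took 12% of the summed FPKM with si-NC and 6.95% with si-v, and the part of this shift in the ratios below was measured only as a change of scale.

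As background, mitogens raise the D-type cyclins, which bind CDK4 and CDK6 and begin the phosphorylation of the RB1 protein. RB1 then releases E2F transcription factors, whose targets include the E-type cyclins and the enzymes of DNA synthesis, and the cyclin E complexes with CDK2 complete the phosphorylation. CDKN1A and CDKN1B block the CDK2 complexes and also bind, and help assemble, the cyclin D complexes, while the INK4 proteins bind CDK4 and CDK6 alone. In breast cancer this step is the target of CDK4/6 inhibitor drugs.

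The 10 genes did not move as a block between the libraries. In the si-v library 6 were lower and 4 higher by any amount, where 50.4% of the 11051 genes past the filter (at least 1 FPKM in at least 1 library) were higher. A gene was called at 1.5-fold on the log2((si-v + 1)/(control + 1)) scale, on which the added 1 FPKM understates differences of low genes. By that rule CDK2 was lower and CDK4 was higher, 1 member each way, against a background of 8.92% of all tested genes lower and 9.82% higher. With so few members, 1 of 10 is close to that background. The median log2 ratio of the members was -0.30, and that of all tested genes was 0.004, with quartiles of -0.27 and 0.30. The members' median thus lay just below the lower quartile of all tested genes. CCNE1 at -0.580 and RB1 at -0.576 lay just inside the threshold, a log2 size of 0.585, so the count of lower genes depends on small choices. Scaled without the mitochondrial genes, both passed it at -0.64, and at a ratio of 5 to 4, a lower threshold, 5 members were lower (background 21.4%) and 1 was higher (23.6%). None reached 2-fold, which 2.49% of tested genes did downward and 2.38% upward.

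**Figure D1:**
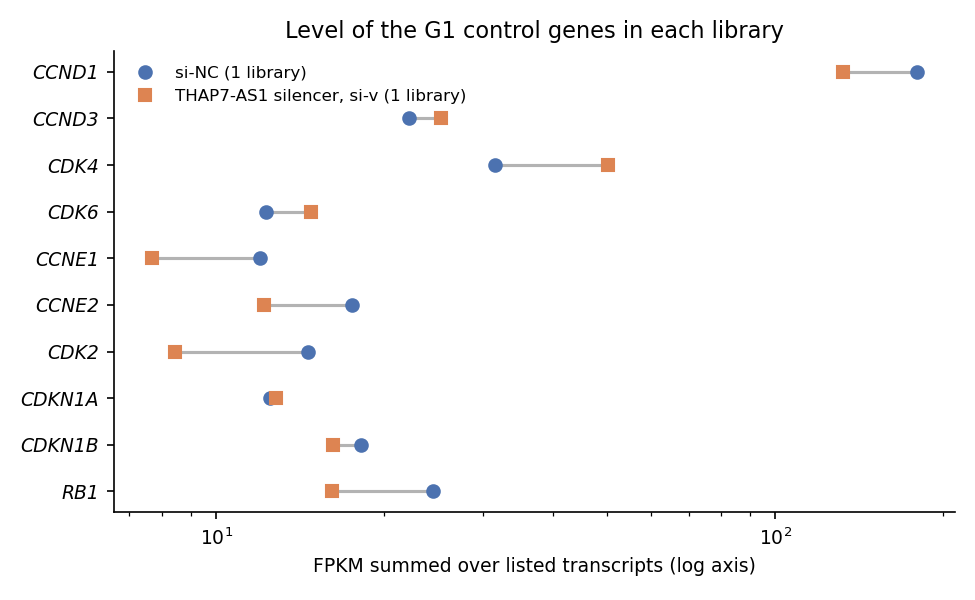
FPKM of each of the 10 genes (log axis) in the si-NC library (circles) and in the library of the THAP7-AS1 silencer (squares), 1 library each. CCND1 stands far above the rest in both libraries at 179 and 132 FPKM, and the squares lie to the left of the circles for the E-type cyclins, CDK2 and RB1 and to the right for CDK4.

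Among the cyclins of early G1, CCND1 was the most abundant member. It stood at 179 FPKM with si-NC and 132 with si-v, which placed it at percentiles 98.4 and 97.0 of all tested genes. The log2 ratio was -0.43, with a 95% counting interval from -0.48 to -0.39. Such intervals are exact Clopper-Pearson intervals on approximate fragments (about 8410 and 6750 for CCND1), and they cover counting error only, not the division of reads among transcripts nor the variation between cultures. Almost the whole level came from CCND1-201, the full-length transcript, at 178 and 132 FPKM. CCND3, the other D-type cyclin listed, lay the other way at 22.1 FPKM with si-NC and 25.3 with si-v (log2 0.19, counting interval 0.02 to 0.37), though its ratio was 0.00 after correction for GC content and length. Its main transcript CCND3-203 stood at 14.9 and 17.1 FPKM and CCND3-204 at 3.77 and 5.35. The third D-type cyclin gene, CCND2, was not listed. CCND1 was thus 8.10 times the level of CCND3 with si-NC and 5.22 times with si-v.

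CDK4, a catalytic partner of the D-type cyclins, had the highest ratio of the 10 genes, and nearly all of the difference lay in 1 short transcript. The gene stood at 31.5 FPKM with si-NC and 50.2 with si-v (log2 0.65, counting interval 0.48 to 0.83, about 415 and 638 fragments). The full-length CDK4-201 was level at 9.47 and 9.67 FPKM. CDK4-204 stood at 8.12 and 24.8 FPKM, 3.05 times as high in the si-v library, and accounted for 16.7 of the 18.7 FPKM by which the gene was higher. Without it the remaining 8 transcripts summed to 23.4 and 25.4 FPKM (log2 0.11). Of the 9 listed CDK4 transcripts 7, CDK4-204 among them, are annotated as incomplete at the 3′ end, and with such transcripts left out the gene stood at 11.8 and 12.5 FPKM (log2 0.08). The call was also lost on fragments per gene (0.49), where each transcript weighs by its length, and after correction for GC content and length (0.50).

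CDK4-204 uses a later splice site in its second exon, which removes the start codon and the coding bases after it, and its annotated coding sequence begins 222 bases further on. The bases concerned are shown because they separate the transcript that was level from the one that was higher. The stretch below is the start of the CDK4-201 coding sequence at chr12:57751628-57751717 (minus strand, GRCh38, GENCODE release 29), with the 58 bases that CDK4-204 lacks in capitals.
CDK4-201: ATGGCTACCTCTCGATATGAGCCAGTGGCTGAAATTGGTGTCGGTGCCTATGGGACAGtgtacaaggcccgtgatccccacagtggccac
CDK4-204 has 0 exon bases that no other listed CDK4 transcript holds, so its value rests on splice junctions and on the division of shared reads. CDK4-201 also shares 1078 of its bases with exons of TSPAN31 on the opposite strand, against 149 for CDK4-204; TSPAN31 stood at 2.05 and 2.32 FPKM, and for the strand setting of the counting, nothing was given in the sources used here.

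CDK6, the other kinase that pairs with D-type cyclins, stood at 12.3 FPKM with si-NC and 14.8 with si-v (log2 0.25, counting interval 0.16 to 0.35). CDK6-201, a very long transcript, stood at 10.3 and 13.0 FPKM, while CDK6-202, which starts from another first exon and has a coding region of the same length, stood at 2.06 and 1.88. CDK4 and CDK6 together came to 43.8 FPKM with si-NC and 65.0 with si-v, and CCND1 and CCND3 together to 201 and 158. Per FPKM of the kinases, D-type cyclin RNA was 4.58 with si-NC and 2.42 with si-v, a ratio that carries the uncertainty of CDK4-204.

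RefSeq promoter windows, 250 bases before to 50 after a gene start (GRCh38.p14), were matched for CCND3, CCNE1, CDK4, CDK6, CDKN1A and CDKN1B where a listed transcript starts in the window, 8 windows in all. They were searched on both strands for the E-box CACGTG, bound by MYC and related factors, for the GC box GGGCGG, bound by SP1 and related factors, and for the E2F site written as TTTCCCGC, TTTGGCGC, TTTCGCGC or TTTGCCGC. CCND1, CCNE2, CDK2 and RB1 had no window in this search, so the counts say nothing of those genes. The GC box was in 7 of the 8 windows (45.0% of all 35116 windows), the E-box in 2 (7.26%), and the E2F letters in 0 (3.31%). The 0 for the E2F letters therefore does not describe the members as a set. CDK4 held 3 E-boxes, shown here with CACGTG in capitals because CDK4 was the one member called higher on summed FPKM. CDK4-201, which was level, and CDK4-204, which was higher, both start in this window. The other window with an E-box was that of CDK6-202 (2.06 and 1.88 FPKM). The CDK4 E-boxes lie at chr12:57752509-57752538, chr12:57752489-57752518 and chr12:57752394-57752423 on the minus strand. Their letters begin 216, 196 and 101 bases before the RefSeq gene start, and the second and the third fall inside the annotated first exon of CDK4-201, which starts further upstream.
CDK4 E-box 1: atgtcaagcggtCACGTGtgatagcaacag
CDK4 E-box 2: atagcaacagatCACGTGgctgccatcgcc
CDK4 E-box 3: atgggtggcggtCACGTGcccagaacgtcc
A match of letters is not evidence of binding.

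CDK2 and CCNE2, of late G1, were lower in the si-v library, and so was the summed value of CCNE1. CDK2, which pairs with the E-type cyclins, stood at 14.6 FPKM with si-NC and 8.46 with si-v, 1.72-fold lower (log2 -0.72, counting interval -0.95 to -0.49, about 353 and 214 fragments). Its full-length transcript CDK2-201 carried the difference, at 13.4 and 7.21 FPKM, while CDK2-202 (0.863 and 0.793) and CDK2-203 (0.288 and 0.466) were low in both libraries. Over 7 other ways of summing and scaling, the log2 ratio of CDK2 ran from -0.81 to -0.72. Its exons share 89 bases with PMEL and 287 with AC025162.1 on the opposite strand, as those of CCND1 share 497 with LTO1 and those of CDK6 81 with AC002454.1.

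CCNE2 stood at 17.5 FPKM with si-NC and 12.2 with si-v (log2 -0.49, counting interval -0.67 to -0.30). CCNE2-201 stood at 17.5 and 9.84 FPKM, and CCNE2-202, which ends in a different last exon, stood at 0.0183 and 2.34. Only 24 of the 1361 bases of CCNE2-202 are in no other listed transcript. Its value, about 0.274 and 37.9 fragments, therefore rests largely on the division of shared reads. After correction for GC content and length the log2 ratio of CCNE2 was -0.27, and from its most abundant transcript it was -0.77. Its exons share 1520 bases with INTS8 on the opposite strand, which stood at 5.23 and 7.10 FPKM.

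CCNE1 stood at 12 FPKM with si-NC and 7.68 with si-v (log2 -0.58, counting interval -0.89 to -0.27, only about 158 and 133 fragments). The difference lay in its 2 transcripts annotated as incomplete, CCNE1-205 at 5.98 and 2.70 FPKM and CCNE1-206 at 2.57 and 1.03. The full-length CCNE1-201 stood at 2.62 and 3.33 FPKM and CCNE1-202 at 0.812 and 0.626, so the complete transcripts together came to 3.43 with si-NC and 3.95 with si-v. The sign of CCNE1 therefore turned, to log2 0.16, when incomplete transcripts were left out, and the ratio was -0.30 on fragments per gene. No single direction can therefore be given for CCNE1.

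The CCNE1 transcripts differ by short coding stretches, shown here because only CCNE1-201, which holds both, had a higher value with si-v. CCNE1-202, CCNE1-205 and CCNE1-206 were lower, CCNE1-202 on only about 14.6 and 12.2 fragments. CCNE1-205 is annotated as incomplete at its end, before exon 9, and CCNE1-206 as incomplete at its start. What these 2 lack is therefore partly a matter of annotation. CCNE1-205 lacks 9 bases that CCNE1-201 has at the start of the fourth exon, in capitals below. The lines cover the join of the third and the fourth exon, which lie between chr19:29812756-29812998 (plus strand, GRCh38, GENCODE release 29).
CCNE1-201: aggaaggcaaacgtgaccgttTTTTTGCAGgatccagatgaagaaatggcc
CCNE1-205: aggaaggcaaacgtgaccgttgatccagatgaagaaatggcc
CCNE1-202 and CCNE1-206 both lack exon 9 of the 12 exons of CCNE1-201, 135 bases at chr19:29821996-29822130.
CCNE1-201 exon 9: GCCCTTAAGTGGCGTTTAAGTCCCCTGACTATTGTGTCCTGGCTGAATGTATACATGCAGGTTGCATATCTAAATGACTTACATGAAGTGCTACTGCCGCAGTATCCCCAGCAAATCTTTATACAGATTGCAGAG
CCNE1-205 and CCNE1-206 have 0 exon bases of their own among the listed transcripts. The E-type cyclins together stood at 29.5 FPKM with si-NC and 19.9 with si-v, or 2.02 and 2.35 per FPKM of CDK2.

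CDKN1A, an inhibitor induced by many stress and growth arrest signals, was level as a gene while its transcripts differed in share. It stood at 12.5 FPKM with si-NC and 12.8 with si-v (log2 0.03, counting interval -0.18 to 0.24), and other ways of summing and scaling gave values from -0.12 to 0.13, on either side of 0. CDKN1A-203 took 57.6% of the gene with si-NC and 4.70% with si-v, at 7.23 and 0.602 FPKM. CDKN1A-208 took 8.60% and 58.2%, at 1.08 and 7.46 FPKM. CDKN1A-201 was close in level at 4.24 and 4.75 FPKM. CDKN1A-203 was thus 12 times lower and CDKN1A-208 6.92 times higher in the si-v library while their sum with CDKN1A-201 barely differed.

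All 3 CDKN1A transcripts carry 1 and the same coding sequence of 492 bases and share the second and the third exon; they differ in the first exon. CDKN1A-208 starts 2198 bases upstream of CDKN1A-201, and CDKN1A-203 starts 52 bases downstream of it. The 30 bases across the join of the first and the second exon tell them apart and are shown for that reason, with the 15 bases of the first exon in capitals and the shared 15 bases, which hold the start codon, in lower case. The first exons end at position 36678798 for CDKN1A-201, 36678939 for CDKN1A-203 and 36676524 for CDKN1A-208 of chromosome 6 (plus strand, GRCh38, GENCODE release 29).
CDKN1A-201: AGGCACTCAGAGGAGgcgccatgtcagaac
CDKN1A-203: GTGTTTCTGCGGCAGgcgccatgtcagaac
CDKN1A-208: GCTGCCTGTTTTCAGgcgccatgtcagaac
The exon bases held by no other listed CDKN1A transcript number 54, 141 and 65 in that order. The split of about 306 fragments with si-NC and 326 with si-v among these 3 transcripts therefore rests on short stretches, and no counting interval was given to it.

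The stretch that precedes the starts of CDKN1A-201 and CDKN1A-203, and that lies downstream of the start of CDKN1A-208, is shown because the 3 transcripts differ in which side of it they start. It spans 194 bases at chr6:36678464-36678657 (plus strand, RefSeq, GRCh38.p14) and ends at the base before the CDKN1A-201 start, with its 2 GC boxes in capitals.
CDKN1A upstream: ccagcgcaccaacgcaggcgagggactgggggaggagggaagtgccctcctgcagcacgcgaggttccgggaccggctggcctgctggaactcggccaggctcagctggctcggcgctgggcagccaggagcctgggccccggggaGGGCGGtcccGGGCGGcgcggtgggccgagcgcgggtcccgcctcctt

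CDKN1B, which holds CDK2 inactive in resting cells, stood at 18.2 FPKM with si-NC and 16.2 with si-v (log2 -0.16), with a counting interval from -0.33 to 0.01 that includes no change. CDKN1B-201 gave nearly all of it, at 18.2 and 15.6 FPKM, and CDKN1B-202 was listed at 0 with si-NC and 0.563 with si-v. CDKN1A and CDKN1B together stood at 30.7 and 29 FPKM. Because CDK2 was lower, the inhibitors per FPKM of CDK2 were 2.11 with si-NC and 3.42 with si-v. These are ratios of RNA levels in 1 culture each and say nothing of the proteins, whose stability is the main control of CDKN1B.

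RB1, the repressor that the G1 kinases inactivate, stood at 24.4 FPKM with si-NC and 16.1 with si-v, 1.52-fold lower (log2 -0.58, counting interval -0.69 to -0.46, about 1280 and 915 fragments). It was the one member with a single listed transcript, of 4 coding transcripts annotated, and any division of reads with the others was not tested. RB1 has a low GC content of 37.3%, and after correction for GC content and length its log2 ratio was -0.32.

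**Figure D2:**
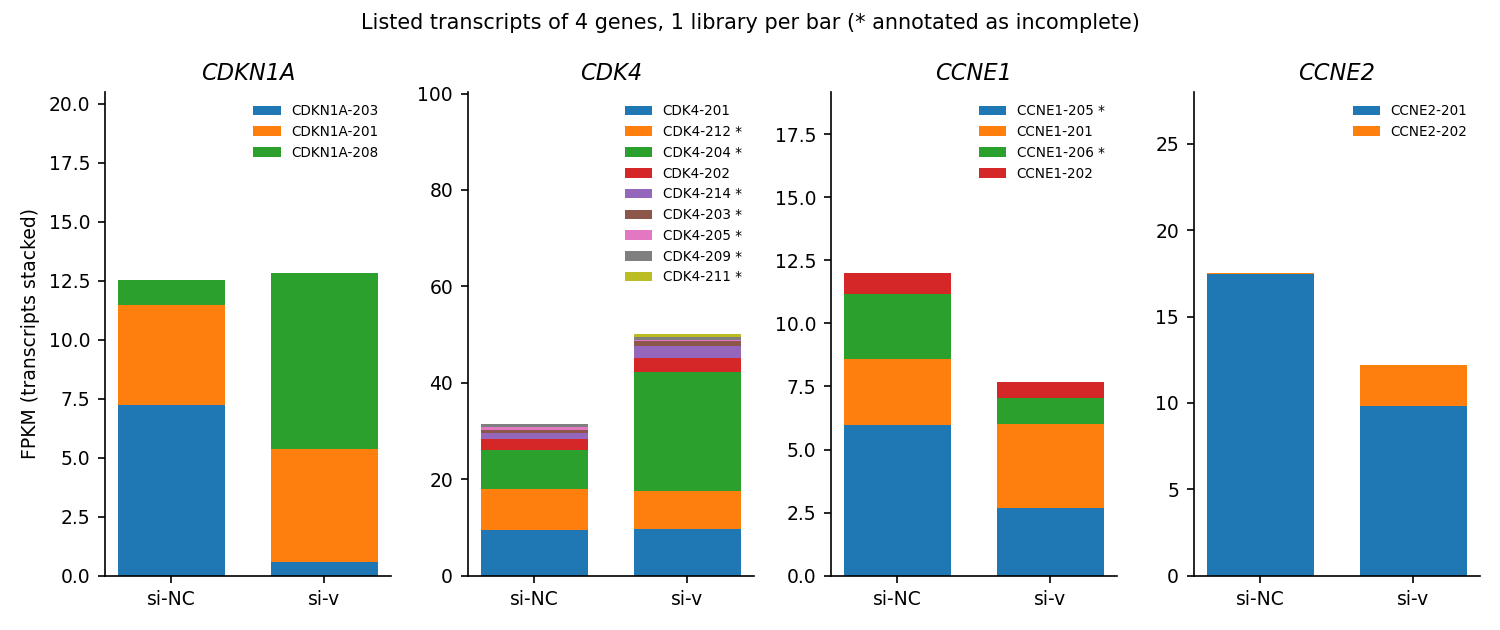
FPKM of the listed transcripts of CDKN1A, CDK4, CCNE1 and CCNE2, stacked, in the si-NC and the si-v library, with an asterisk on transcripts annotated as incomplete. The CDKN1A bars are of like height at 12.5 and 12.8 FPKM with CDKN1A-203 replaced by CDKN1A-208, and the CDK4 bar is taller with si-v by the part of CDK4-204.

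Such shifts among transcripts were common in these libraries. Of the 9 members with several listed transcripts, 3 (CCNE1, CDK4 and CDKN1A) had a different most abundant transcript in each library, and so had 26.4% of the 8455 tested genes with 2 or more listed transcripts. Among the 23 member transcripts of at least 1 FPKM in a library, 3 were higher by 2-fold and 2 lower, where 11.7% and 10.4% of the 24899 such transcripts of all genes were. The 3 were CDK4-204, CDKN1A-208 and CCNE2-202, and the 2 were CDKN1A-203 and CCND3-207; CCND3-207, an incomplete transcript, stood at 1.12 and 0.0446 FPKM.

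**Figure D3:**
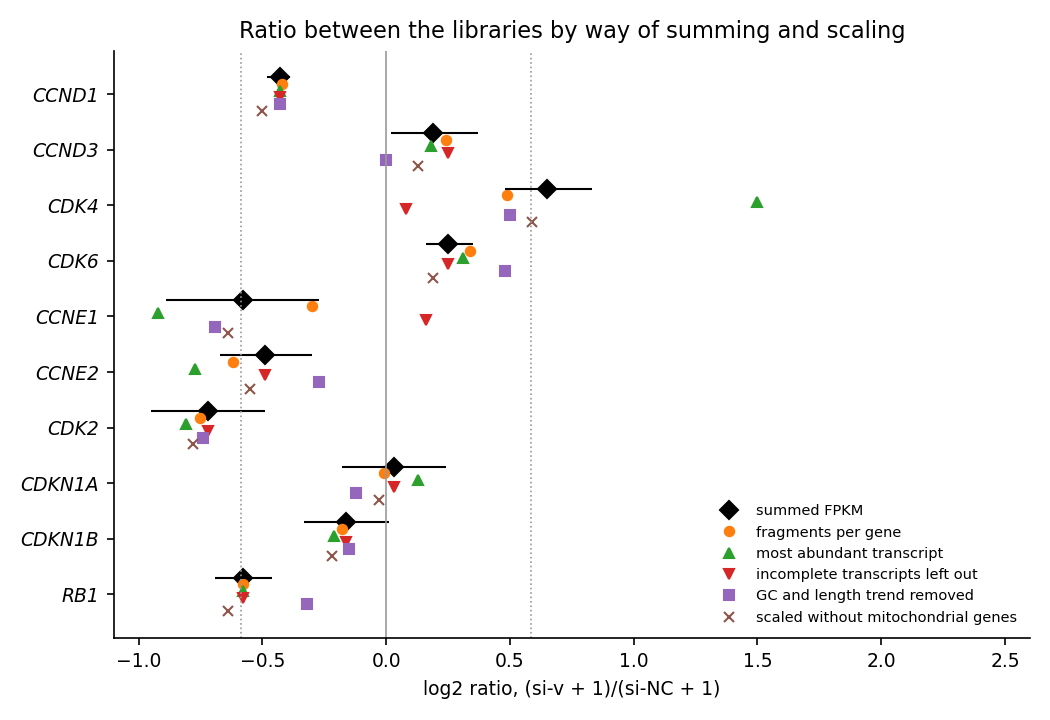
Log2 ratio of the si-v over the si-NC library for each gene from summed FPKM (black diamonds, bars are 95% counting intervals) and from 5 other ways of summing or scaling, with dotted lines at 1.5-fold. CDK2 stays left of the dotted line throughout, CDK4 runs from 0.08 to 1.5, and CCNE1 runs from -0.92 to 0.16.

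In order of level in the control the genes ran CCND1, CDK4, RB1, CCND3, CDKN1B, CCNE2, CDK2, CDKN1A, CDK6 and CCNE1. In the si-v library the order was CCND1, CDK4, CCND3, CDKN1B, RB1, CDK6, CDKN1A, CCNE2, CDK2 and CCNE1. By value the first and the last places were the same, and CDK2 and CCNE2 passed below CDKN1A and CDK6. CDKN1A, CDK6 and CCNE1 all lay at 12 to 12.5 FPKM in the control, too close to be ordered without replicates. The same holds in the si-v library for RB1 and CDKN1B at 16.1 and 16.2, and for CCNE2 and CDKN1A at 12.2 and 12.8. The last place of CCNE1 in the control and the passing of CCNE2 below CDKN1A are therefore not firm. In a bulk culture, a different share of cells in G1 and a different amount of RNA per cell cannot be told apart.

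The other genes of the network were read from 7 lists. At 1.5-fold, 8.92% of all tested genes were lower and 9.82% higher, given as background for the counts below. The INK4 and KIP inhibitors outside the members had 3 of 5 genes past the filter, none called at 1.5-fold, and a median log2 ratio of -0.29. CDKN2C (p18), which binds CDK4 and CDK6, stood at 19.8 and 22.8 FPKM (log2 0.20), and CDKN2D (p19) at 34.6 and 26.1 (-0.39, but -0.16 from its most abundant transcript). CDKN2A (p16), a gene known to be deleted in this line, was listed at 2.27 and 1.67 FPKM over 9 transcripts, about 27.3 and 21.5 fragments, and where those reads come from was not examined. CDKN2B and CDKN1C were under 1 FPKM in both libraries.

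Among pocket proteins, E2F and DP factors, 3 of 12 were lower and 1 higher at 1.5-fold (background 8.92% and 9.82%). The median was -0.02. E2F4, a repressor E2F that acts with the pocket proteins in resting cells, had the log2 ratio farthest from 0 among the genes of the lists, on the scale with 1 FPKM added: it stood at 28.5 FPKM with si-NC and 6.68 with si-v, 4.27-fold lower (log2 -1.94, counting interval -2.17 to -1.72), on a single listed transcript. E2F5, its close relative, stood at 5.34 and 2.57 FPKM (-0.83), and E2F8, a repressor induced in S phase, at 15.9 and 9.15 (-0.74). The DP partner gene TFDP2 was higher at 10.3 and 16.2 (0.60, but 0.27 on fragments per gene), and the activator E2F1 stood at 17.9 and 23.2 (0.36).

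Other cyclins, kinases and CDK partners of interphase had 3 of 15 genes lower and 1 higher (background 8.92% and 9.82%). Their median was -0.38 (10 of 15 lower by any amount). CCNA1, an A-type cyclin best known from the germ line, stood at 14.3 and 6.10 FPKM (log2 -1.11), and WEE1, the kinase that restrains CDK1, at 14.8 and 7.63 (-0.88). CDK3 stood at 1.34 FPKM in the control, about 11.8 fragments, and was listed at 0 in the si-v library; on fragments per gene its log2 ratio of -1.23 was -0.54, inside the threshold. CDC37, the cochaperone that loads CDK4 and other kinases onto HSP90, was higher at 126 and 198 FPKM (0.64, but 0.44 after correction for GC content and length), and CDK8 stood at 4.69 and 7.51 (0.58). CCNA2 and CDK1, which act from S phase on, stood at 61.3 and 44.6 FPKM (-0.45) and at 61.1 and 41.8 (-0.54).

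Genes for the turnover of G1 cyclins and inhibitors had 2 of 18 lower and 0 higher (background 8.92% and 9.82%), with a median of -0.12. The 2 were CUL3, the scaffold of a ubiquitin ligase for cyclin E, at 14.4 and 8.43 FPKM (log2 -0.71, and -0.43 after correction for GC content and length), and FZR1, the G1 activator of the anaphase-promoting complex, at 10.6 and 6.39 (-0.65, and -0.27 on fragments per gene). FBXO31 had the highest ratio at 3.29 and 4.61 FPKM (0.39, but -0.09 from its most abundant transcript), followed by SKP1 at 86.4 and 111 (0.36, but -0.14 on fragments per gene).

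The E2F-driven S phase genes were split evenly, 12 higher and 12 lower by any amount of 24, with a median of 0.01. At 1.5-fold, 0 were lower and 1 was higher (background 8.92% and 9.82%). That gene was MCM2, a subunit of the replicative helicase, at 18.6 and 31.3 FPKM (log2 0.72, but 0.58 after correction for GC content and length, where the call is lost), next to MYBL2 at 28.3 and 38.9 (0.44, and 0.27 after correction for GC content and length). At the other end, UHRF1 stood at 59.9 and 43.1 (-0.47, but 0.17 from its most abundant transcript) and MCM5 at 37.4 and 27.1 (-0.45, but 2.17 from its most abundant transcript and 0.01 on fragments per gene). DREAM represses cell cycle genes in quiescence, and the list of DREAM and MuvB core genes had 0 of 6 called, with a median of -0.09. MYBL2, given above, is also in this list and so entered both medians. The lowest were LIN54 at 13.3 and 9.65 FPKM (-0.43) and LIN9 at 7.08 and 5.44 (-0.33, but 0.02 from its most abundant transcript). RBBP4 was the highest at 17.5 and 25.5 (0.52, but -0.13 from its most abundant transcript).

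Upstream transcription factors of the members had 2 of 14 lower and 0 higher (background 8.92% and 9.82%), with a median of -0.05. The AP-1 subunit FOSL1 stood at 739 and 463 FPKM (log2 -0.67, and -0.35 from its most abundant transcript) and SMAD4, which acts on CDKN1A after TGF-beta, at 4.16 and 2.32 (-0.64, but -0.36 from its most abundant transcript). The highest were the AP-1 subunit JUN, an activator of CCND1, at 87.0 and 108 (0.30) and STAT3 at 19.8 and 24.5 (0.29).

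**Figure D4:**
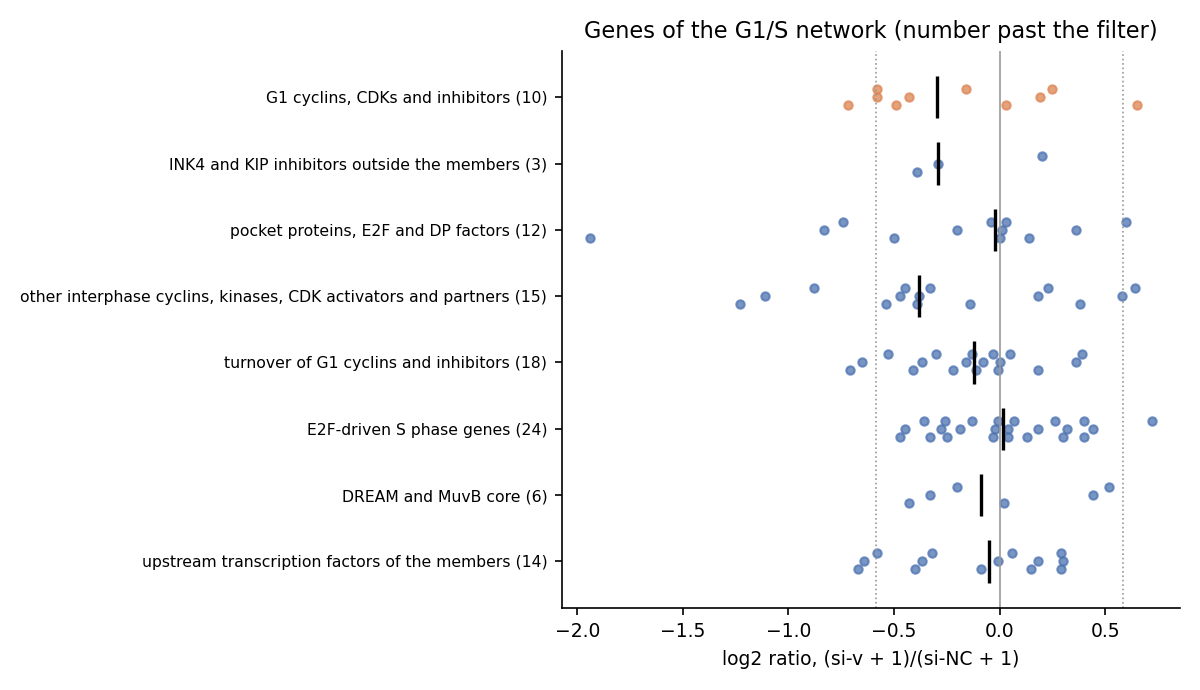
Log2 ratio of the si-v over the si-NC library for the 10 G1 control genes and for the genes of 7 lists past the filter, 1 point per gene, with a black bar at each median and dotted lines at 1.5-fold. The medians lie between -0.38 and 0.01, and E2F4 at -1.94 is the point farthest from 0.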

How the data were processed

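Per the submitters' processing notes, cutadapt, HISAT2 2.0.5 and StringTie were used with the hg19 build. Their roles, settings and strand handling were not given in the sources used here, nor was the annotation release. The authors deposited 1 table of 39605 transcripts with a value per library, read as FPKM, since FPKM weighted by length summed to 71.4% and 69.9% of the total a complete table would hold. Transcripts were matched without version to GENCODE release 29 (99.5%; 179 unmatched), which is on GRCh38 and gave symbols, lengths, exons and completeness tags; 33 of the 34 member transcripts had the same version, RB1-201 being the exception. FPKM were summed per gene (Python 3.11.15, pandas 2.3.3), and ratios used a pseudocount of 1 FPKM and a filter of 1 FPKM in at least 1 library. For genes listed with 1 transcript, FPKM times length had a low peak at 91.2 (si-NC) and 84.1 (si-v), taken as 1 fragment; 53.5% and 48.7% of the 86 and 76 values near the peak lay within 5% of it, so fragments are approximate and whole counts were not recovered. Intervals are exact Clopper-Pearson at 95% and cover counting error only.

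With 1 library per group no test was possible. The members and lists were chosen with earlier results of these data known. The text names all members, and of each list every called gene and the 2 highest and 2 lowest ratios, by a rule set with the lists; CCNA2, CDK1, CDKN2B and CDKN1C were added after their values were seen. The call rule, the interval and the trend removal were tested on simulated data with whole counts per gene. The division of reads among transcripts, the approximate fragments and the variation between cultures were not simulated, so the test does not cover them. Alternatives were another pseudocount, filters, thresholds and scalings, fragments per gene, the most abundant transcript, removal of a GC content and length trend and, added after the data were seen, scaling without mitochondrial genes and leaving out incomplete transcripts. Some genes and 1 gene list are not reported here.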

Additional observations from a re-analysis of the deposited data

How the results depend on the processing

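Over 7 other ways of summing and scaling, 8 of the 10 genes kept their sign or reached 0.00 (CCND3); CCNE1 (-0.92 to 0.16) and CDKN1A (-0.12 to 0.13) did not. The count of lower members, 1 as reported, was 3 with a pseudocount of 0.1, 3 from the most abundant transcript, 3 when scaled without mitochondrial genes, 2 on fragments per gene, 2 after correction for GC content and length, 5 at a ratio of 5 to 4 and 0 at 2-fold. The count of higher members, also 1, was 0 on fragments per gene, 0 after that correction, 0 without incomplete transcripts and 0 at 2-fold. Of all tested genes, 21.4% were lower at 5 to 4 and 2.49% at 2-fold, and 2.38% were higher at 2-fold. The share of all genes called was not computed for the other pseudocount, summings or scalings. The counts under those settings therefore have no background to be read against. The members' median of -0.30 was -0.07 without incomplete transcripts, where CCNE1 passed from below to above the median. A median was taken as moved when it left the median of its genes' counting bounds; the other 82 values of counts and medians stayed inside. No paired analysis was possible because each group has 1 library, and no library could be left out. Among the members CCNE1 had the fewest fragments, about 158 and 133. Of the genes named from the lists and markers, CDK3, CDKN2B, CDKN1C, CDKN2A, CDH1 and ESR1 had under 30 in each library.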
